A study of Mus musculus with 36 samples.

Results

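A set of 10 genes of the interstitial matrix were followed through the gastrocnemius muscle of mice that ate a high-fat diet and ran defined distances. They were taken by name from a table of 46893 features and all 10 were found: elastin (Eln), fibrillin-1 (Fbn1), fibronectin (Fn1), periostin (Postn), SPARC (Sparc), lysyl oxidase (Lox), tissue inhibitor of metalloproteinases 1 (Timp1), matrix metalloproteinase 2 (Mmp2), decorin (Dcn) and lumican (Lum). The table holds RNA-seq read counts of 36 male wild-type C57BL/6 mice, 6 in each of 6 groups, which were 3 to 4 weeks old when the 12-week study began. NFD-C mice were sedentary on a normal-fat diet, and HFD-C mice were sedentary on a high-fat diet. The other groups ate the high-fat diet with a running wheel: HFD-25% mice ran 2.1 km/day, HFD-50% mice 4.2 km/day, HFD-75% mice 6.3 km/day and HFD-U mice, whose running was not restricted, 8.3 km/day. Since all runners ate the high-fat diet, running on the normal-fat diet was not part of the design, and every comparison with HFD-C below shares the same 6 HFD-C mice.

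The interstitial matrix surrounds muscle fibres, fascicles, vessels and nerves, carries force sideways and stores growth factors. Elastin and fibrillin microfibrils give recoil, fibronectin and the matricellular proteins SPARC and periostin link cells to collagen, and the small leucine-rich proteoglycans decorin and lumican coat collagen fibrils. Lysyl oxidase cross-links elastin and collagen, while matrix metalloproteinases cut matrix proteins and TIMPs inhibit them. In skeletal muscle most of these transcripts come from fibroblast-like cells between the fibres, so in whole muscle fewer such cells and less RNA per cell cannot be told apart.

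Libraries held 13060090 to 27981702 counts. Reads on ribosomal RNA-linked features divided them into a pair of sets that followed the groups. The features listed were mt-Rnr1, mt-Rnr2, AY036118, LOC118568312, Lars2, Rn45s and Rn18s-rs5. The study reported Lars2 among its genes with a dose response to distance, and an effect of running on the share was not tested. The share of these features was 2.01 to 3.80% in the 6 NFD-C mice and 2.12 to 3.54% in HFD-C mice 1 to 4. It was 0.551 to 0.626% in HFD-C mice 5 and 6 and 0.404 to 1.02% in all 24 runners. Most of the HFD-C libraries differed from the runners in this share as well as in running, and results are also given for the 26 libraries of the low set alone. HFD-50% mouse 4 stood apart, with a mean standardized deviation of the members from their group means of -1.83, and HFD-C mouse 1 had the highest Fbn1 and Fn1 of its group. The 5 listed skeletal muscle fibre markers summed to between 61772 and 137293 CPM in every mouse. Of these, Acta1, Ckm, Tnnt3 and Myh4 were high, which fits the labelled tissue. Mylpf, the remaining fibre marker, fell under the minimum mean count of 25 used in the tests, and its low count was not examined. The 10 fibroblast markers summed to between 401 and 1072 CPM.

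Promoter sequences of 4 of the 10 members were found in the RefSeq table for GRCm38.p6. The 250 bases before the start are shown for Sparc, the member that was lower in runners, and for Postn, whose expression tracked that of other members most closely. They are written 5′ to 3′ along the strand of the gene, at chr11:55420081-55420330 (minus strand) and chr3:54360857-54361106 (plus strand). The table holds 2 starts for Postn, and the one shown holds the start of 4 of its 5 coding transcripts. The Sparc window holds the start of 3 of its 6 coding transcripts. Capitals mark matches to 2 of 5 motifs that were searched on both strands.
Sparc: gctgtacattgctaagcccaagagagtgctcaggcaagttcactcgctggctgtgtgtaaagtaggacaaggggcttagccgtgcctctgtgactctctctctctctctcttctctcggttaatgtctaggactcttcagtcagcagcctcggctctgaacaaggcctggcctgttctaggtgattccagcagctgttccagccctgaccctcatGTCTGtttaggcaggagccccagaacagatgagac
Postn: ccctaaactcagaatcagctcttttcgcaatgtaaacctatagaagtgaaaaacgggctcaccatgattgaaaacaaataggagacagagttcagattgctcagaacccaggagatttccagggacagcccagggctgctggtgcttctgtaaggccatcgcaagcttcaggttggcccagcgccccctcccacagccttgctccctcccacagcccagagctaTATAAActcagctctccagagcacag
In Postn the capitals are the TATA box letters TATAAA, 26 bases before the start, which 13.6% of 32851 windows of 300 bases around gene starts also held. In Sparc they are GTCTG, the SMAD element CAGAC read on the other strand, at position -35, with another match at +16 beyond the stretch shown; CAGAC was found in 49.6% of the windows. The AP-1 letters TGANTCA (7.8% of windows), the TEAD letters GGAATG (14.7%) and the GC box GGGCGG (35.7%) were in neither window. These matches are descriptions of letters, and binding of a factor was not measured.

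Per length of transcript, Dcn was the most abundant member, with a mean over 36 mice of 112 FPKM (CPM, counts scaled to library size, divided by the gene length in kilobases), followed by Sparc with 51.2 FPKM. Mmp2 (8.85 FPKM), Lum (8.13 FPKM), Eln (5.25 FPKM) and Fn1 (4.25 FPKM) formed a middle range. Fbn1 (1.81 FPKM), Postn (1.61 FPKM) and Lox (1.40 FPKM) were low, and Timp1 (0.230 FPKM) was near the limit of detection. All other levels below are CPM, normalised for library composition, and compare 1 gene between groups. Gene coordinates are those of the table, whose chromosome accessions belong to GRCm39. A gene was called, or passed the test, where the unadjusted p of an edgeR fit was 0.05 or less.

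**Figure D1:**
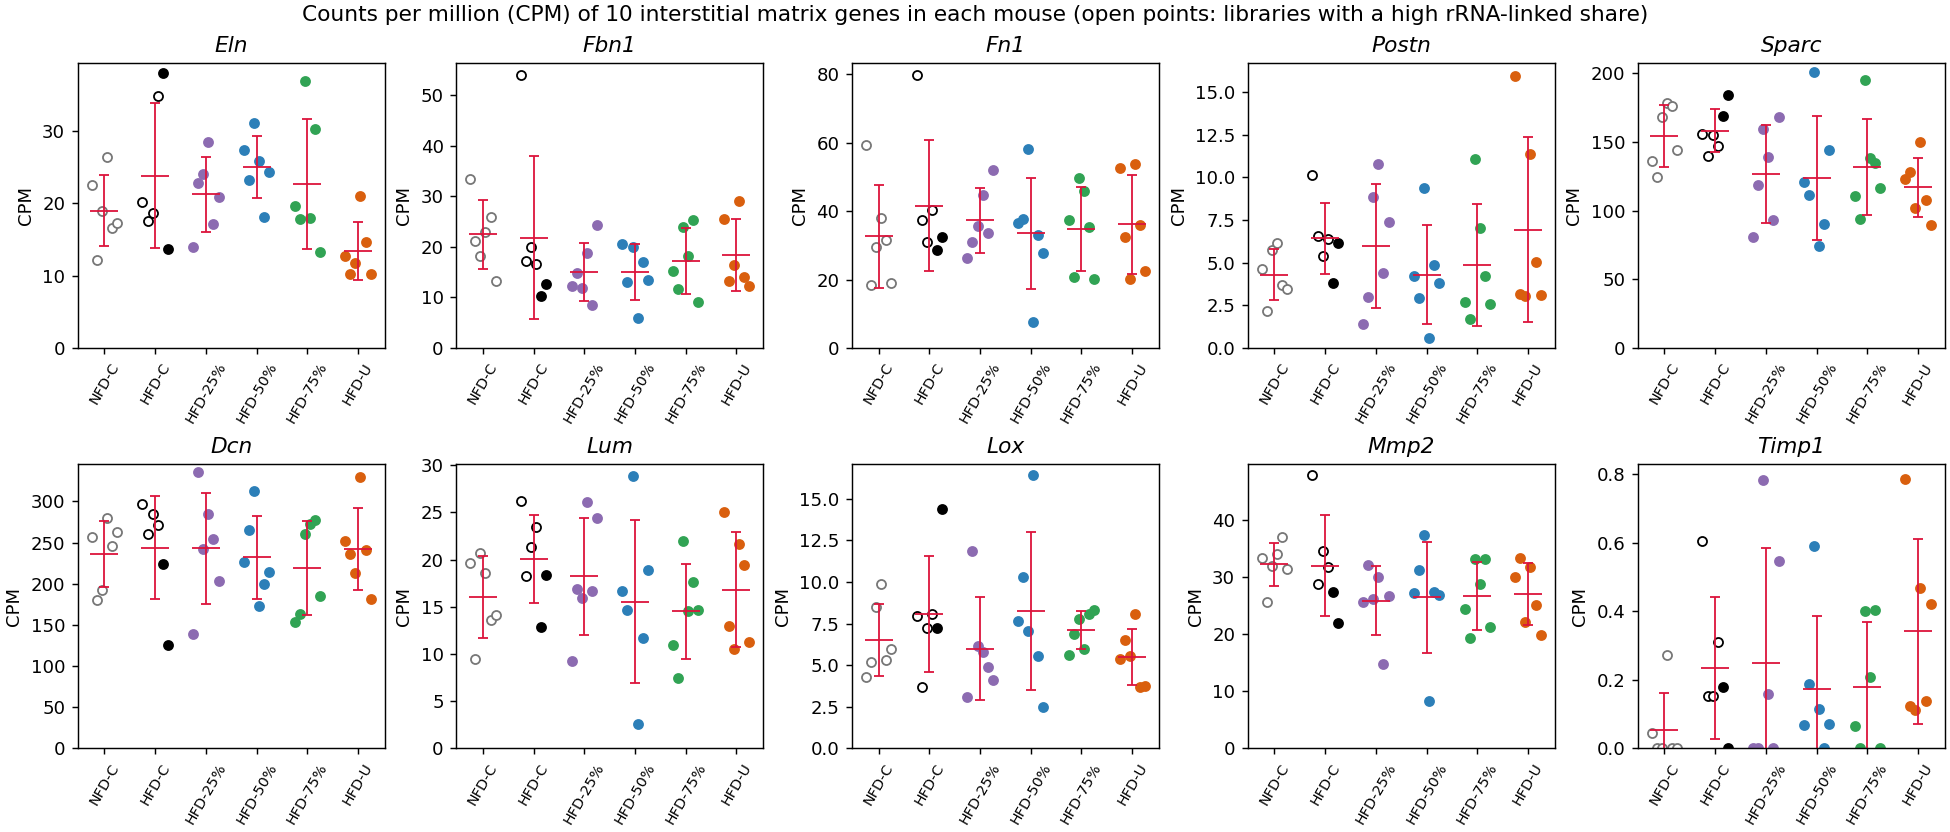
CPM of each of the 10 genes (vertical axes, from 0) in each mouse, by group (horizontal axes); open points are libraries with a high rRNA-linked share, and red bars show the mean ± SD of 6 mice. Eln is lowest in HFD-U and Sparc is lower in all 4 running groups than in HFD-C, while Dcn lies at a similar level in every group and Timp1 stays under 0.8 CPM.

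Eln, the gene of the elastic fibre core (gene ID 13717, chromosome 5, 134731449 to 134776300, minus strand), was lowest in the mice that ran without restriction. It ranged from 13.7 to 38.0 CPM (median 19.4) in HFD-C and from 10.3 to 20.9 CPM (median 12.2) in HFD-U, so 4 of 6 HFD-U mice lay under every HFD-C mouse although the groups overlapped. The means were 23.8 ± 10.1 and 13.4 ± 4.04 CPM (SD, n = 6 each), a log2 fold change of -0.84 (SE 0.25) with an unadjusted edgeR quasi-likelihood p of 0.00445 and an adjusted p of 0.587. An exact permutation test of the mean log2 CPM gave p = 0.0260. With the mouse number as a block the log2 fold change was -0.79 and the adjusted edgeR p was 0.0478. Whether the number pairs mice is not known: same-numbered mice were not compared with differently numbered ones, and the labels do not say. Within the low library set, with 6 HFD-U and 2 HFD-C mice, it was -0.97 (adjusted p = 0.339, unadjusted p of 0.0150).

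Eln did not fall in steps with distance. HFD-25% mice spanned 13.98 to 28.4 CPM (median 21.9), HFD-50% mice 18.2 to 31.1 CPM (median 25.1) and HFD-75% mice 13.3 to 37.0 CPM (median 18.9). Against HFD-C these groups had log2 fold changes of -0.18, 0.06 and -0.08, and the NFD-C mice, at 12.1 to 26.4 CPM (median 18.1), one of -0.32, and none of the 4 passed the test. Ordered by mean, HFD-50%, HFD-C, HFD-75%, HFD-25% and NFD-C overlapped with their neighbours within 1 SD, and HFD-U came last. Linear and quadratic terms of distance had an edgeR p of 0.00672 over the 30 high-fat mice (adjusted p = 0.197). Over the 24 runners alone, a fit that holds no HFD-C library, the p was 0.000843 (adjusted p = 0.216). Under DESeq2 the adjusted p over the runners was 0.0399.

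**Figure D2:**
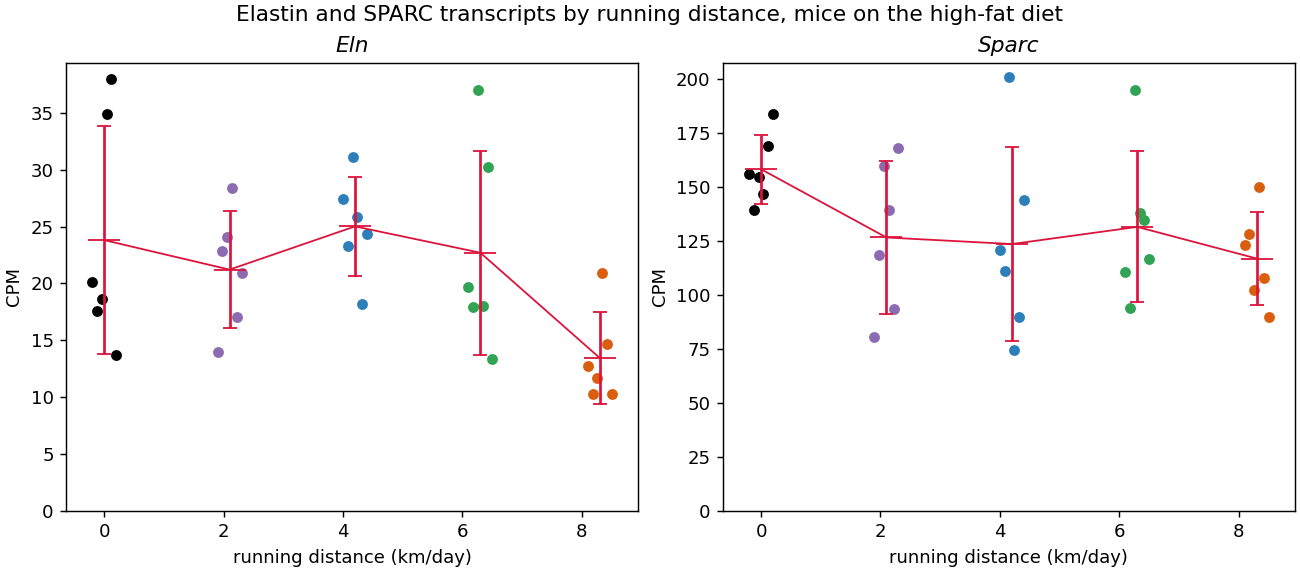
Eln and Sparc in CPM (vertical axes, from 0) against running distance in km/day (horizontal axes) in the 30 mice on the high-fat diet; points are mice and red bars the mean ± SD of 6. Eln keeps means of 21.2 to 25.0 CPM up to 6.3 km/day and is at 13.4 CPM at 8.3 km/day, whereas Sparc is at 117 to 132 CPM at every running distance, against 158 CPM without running.

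Fbn1, which builds the microfibrils on which elastin is laid down (gene ID 14118, chromosome 2, 125142514 to 125348417, minus strand), did not pass the test in any comparison with HFD-C as designed, but was called higher in HFD-75% (0.71) and HFD-U (0.81) when the rRNA-linked share entered the fit as a covariate. It ranged from 10.3 to 53.9 CPM (median 16.9) in HFD-C, where 1 mouse held the highest value of all 36, and from 12.3 to 29.0 CPM (median 15.2) in HFD-U. The groups overlapped widely. Its log2 fold change ran from -0.55 in HFD-25% (SE 0.35) to 0.05 in NFD-C (SE 0.33). The sign depended on the controls: without HFD-C mouse 1 the NFD-C value was 0.54, with an unadjusted p of 0.0224. Within the low library set all 4 running groups lay above HFD-C, HFD-U by a log2 fold change of 0.66 (adjusted p = 0.453).

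Sparc, a collagen-binding glycoprotein that tunes cell adhesion (gene ID 20692, chromosome 11, 55284985 to 55310906, minus strand), was lower in running mice. It ranged from 140 to 184 CPM (median 155) in HFD-C and from 89.8 to 150.3 CPM (median 115) in HFD-U, where 5 of 6 mice lay under every HFD-C mouse. The HFD-U difference was -0.45 on the log2 scale (SE 0.13), or -26.9%, with an unadjusted edgeR p of 0.00256 and an adjusted p of 0.539. The exact permutation test gave p = 0.00649, where 0.00216 is the smallest that 6 mice against 6 allow. Over the 24 runners together it was -0.36 (SE 0.15, adjusted p = 0.431, unadjusted p of 0.0212), with 18 of 24 mice below the lowest HFD-C mouse and 2 above the highest. Without HFD-C mouse 6 the unadjusted p over all runners rose to 0.0653.

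The restricted distances gave Sparc means between those of HFD-C and HFD-U, with wide spreads. HFD-25% mice ranged from 80.7 to 168 CPM (median 129), HFD-50% mice from 74.4 to 201 CPM (median 116) and HFD-75% mice from 94.2 to 195 CPM (median 126). Each of these groups had 4 or 5 of 6 mice under the HFD-C range, at log2 fold changes of -0.34, -0.36 and -0.28 (exact permutation p = 0.0779, 0.0823 and 0.0823), and 1 mouse of HFD-50% and 1 of HFD-75% lay above it. The order of the running groups was not separated by their spread, and the distance terms over the 24 runners had an adjusted p of 0.963. NFD-C mice, at 125 to 179 CPM (median 156), lay level with HFD-C (log2 fold change -0.03, 95% interval -0.28 to 0.23). Within the low library set the Sparc log2 fold change was -0.62 in HFD-U (adjusted p = 0.293, unadjusted p of 0.00491) and -0.52 over all runners (adjusted p = 0.357, unadjusted p of 0.0440).

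Fn1, the adhesive glycoprotein that cells assemble into fibrils through integrins (gene ID 14268, chromosome 1, 71624632 to 71692439, minus strand), had no call. It ranged from 28.7 to 79.7 CPM (median 34.9) in HFD-C, from 18.3 to 59.3 CPM (median 30.6) in NFD-C and from 20.0 to 53.9 CPM (median 34.2) in HFD-U. The medians were 34.8 CPM in HFD-25%, the same in HFD-50%, and 36.3 CPM in HFD-75%, and the groups overlapped throughout. In HFD-50% the lowest value, 7.63 CPM, came from mouse 4.

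Postn, a matricellular protein that rises in healing and loaded connective tissue (gene ID 50706, chromosome 3, 54266688 to 54298462, plus strand), had a lower mean in NFD-C than in HFD-C. It ranged from 3.81 to 10.2 CPM (median 6.28) in HFD-C and from 2.17 to 6.14 CPM (median 4.16) in NFD-C, where 3 of 6 mice lay under the HFD-C range. The log2 fold change was -0.58 (SE 0.27), with an unadjusted edgeR p of 0.0451 and an adjusted p of 0.9996. The exact permutation test did not pass (p = 0.0649). This call was lost in 8 of the 12 fits that left out 1 mouse. Runners spread more widely than sedentary mice: the coefficient of variation was 60.4 to 78.5% in the running groups, against 32.6% in HFD-C and 34.8% in NFD-C, and no running group passed the test. The difference in spread was not tested. Of the cell type markers, 1 (Cd68 of macrophages, -0.83, edgeR adjusted p = 0.9996) was lower in NFD-C, beside 2.14% of all genes. The tendon marker sum had a median of 15.6 CPM in NFD-C against 27.3 CPM in HFD-C, but neither tested tendon marker (Fmod and Scx) was called. The fibroblast marker sum went the other way, with a median of 903 CPM in NFD-C against 802 CPM in HFD-C. The part of these markers' cells in the Postn value was not tested.

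Dcn, which binds collagen fibrils and growth factors (gene ID 13179, chromosome 10, 97315362 to 97354025, plus strand), changed least, with log2 fold changes from -0.16 in HFD-75% to -0.02 in HFD-U and HFD-25%. Its group means lay between 219 ± 57.4 CPM in HFD-75% and 244 ± 62.9 CPM in HFD-C (SD, n = 6 each), with single mice from 126 to 335 CPM. In HFD-U the log2 fold change was -0.02, with a 95% interval of -0.41 to 0.37. Changes inside that interval were not excluded with 6 mice a group. Within the low library set, against HFD-C mice 5 and 6 alone, the running groups turned above 0, from 0.30 in HFD-75% to 0.46 in HFD-25%. None passed the test.

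Lum, the other proteoglycan (gene ID 17022, chromosome 10, 97401363 to 97408565, plus strand), lies near Dcn on the chromosome. It ranged from 12.8 to 26.2 CPM (median 19.9) in HFD-C and from 7.49 to 21.9 CPM (median 14.6) in HFD-75%. That difference was -0.48 on the log2 scale (SE 0.22, unadjusted edgeR p of 0.0483, adjusted p = 0.911), with 2 of 6 HFD-75% mice under the HFD-C range. The exact permutation test did not pass (p = 0.0844), and the call was lost in 9 of the 12 fits that left out 1 mouse. In the low library set alone its value was -0.12. Medians in HFD-U (16.2 CPM), NFD-C (16.3 CPM), HFD-50% (15.6 CPM) and HFD-25% (16.8 CPM) were also under that of HFD-C, and these groups did not pass the test.

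Lox, the enzyme that starts cross-linking by oxidising lysines of elastin and collagen (gene ID 16948), came closest to a call among the remaining members. It ranged from 3.69 to 14.4 CPM (median 7.60) in HFD-C and from 3.71 to 8.10 CPM (median 5.48) in HFD-U. The log2 fold change was -0.57 (SE 0.28), with an unadjusted edgeR p of 0.0563 and an exact permutation p = 0.145. Within the low library set it was -0.99 (adjusted p = 0.323, unadjusted p of 0.0103) in HFD-U and -0.62 (unadjusted p of 0.0366) in HFD-75%. HFD-C mouse 6, 1 of the 2 controls of that set, had the highest Lox of its group, and without it the HFD-U value over both sets was -0.32 (unadjusted p of 0.202). HFD-50% mice had the widest range, 2.51 to 16.4 CPM, with mouse 4 at the top.

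Mmp2, a gelatinase (gene ID 17390, chromosome 8, 93553920 to 93580049, plus strand), had running-group means of 25.9 to 27.0 CPM, under the 32.0 ± 8.85 CPM of HFD-C and the 32.2 ± 3.78 CPM of NFD-C (SD, n = 6). HFD-C mice spanned 22.0 to 47.8 CPM (median 30.2), and the lowest mouse of all was HFD-50% mouse 4, at 8.38 CPM. The log2 fold change over all runners was -0.29 (SE 0.17, edgeR adjusted p = 0.633), and 0.08 within the low library set.

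Timp1, an inhibitor of metalloproteinases that is induced in injury and fibrosis (gene ID 21857, chromosome X, 20736405 to 20740976, plus strand), had 0 to 17 counts per library and 0 in 11 of 36. It was under the minimum mean count of 25 and was not tested with the rest. Its 6 NFD-C libraries held 6 counts in all, against 31 in HFD-C and 32 in HFD-U, with 18 in HFD-75%, 17 in HFD-50% and 29 in HFD-25%. With no minimum count the unadjusted edgeR p was between 0.111 and 0.974 over the 5 group comparisons and all runners, so differences were not detectable at this depth.

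Set side by side, most members had lower means in runners than in HFD-C, and few passed the test. Of the 9 tested members, 0 were lower in HFD-25%, against 3.58% of all tested genes, and 0 in HFD-50%, against 4.89%. In HFD-75% 1 member (Lum) was lower, against 3.16% of genes. In HFD-U 2 members (Eln and Sparc) were lower, against 3.31%. In NFD-C 1 member (Postn) was lower, against 2.14%, and over all runners 1 (Sparc), against 5.12%. In these 6 comparisons 0 members were higher without the rRNA-linked covariate, where of all genes 3.40% were in HFD-25%, 2.31% in HFD-75%, 5.80% in HFD-50%, 2.15% in HFD-U, 1.98% in NFD-C and 4.15% over all runners. For distance 1 member (Eln) was called over 30 mice, against 12.2% of genes, and 1 (Eln) over 24 runners, against 8.49%. At an adjusted p of 0.05 there were 0 members in each of these 8 edgeR fits, beside 0.00820% of genes in HFD-25%, 0.300% over all runners, 0.683% for distance over 30 mice, 0.0419% over 24 runners and 0 in the other 4.

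Most members lay below HFD-C in sign: 8 of 9 in HFD-U, 9 in HFD-75%, 7 in HFD-50%, 9 in HFD-25% and 7 in NFD-C. In the same order their median log2 fold changes were -0.26, -0.27, -0.31, -0.18 and -0.30, beside medians over all tested genes of -0.0051, -0.00089, 0.010, -0.0091 and 0.00038. These fits share the HFD-C mice, so the counts are not independent of each other. Among libraries with a high rRNA-linked share, 6 NFD-C and 4 HFD-C mice, 8 of 9 members lay below HFD-C in NFD-C. There 2 members were called lower and 0 higher (smallest edgeR adjusted p = 0.952), where 4.96% of all genes were called in either direction. Of 35 other interstitial matrix proteins tested there, 8 were lower and 0 higher.

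**Figure D3:**
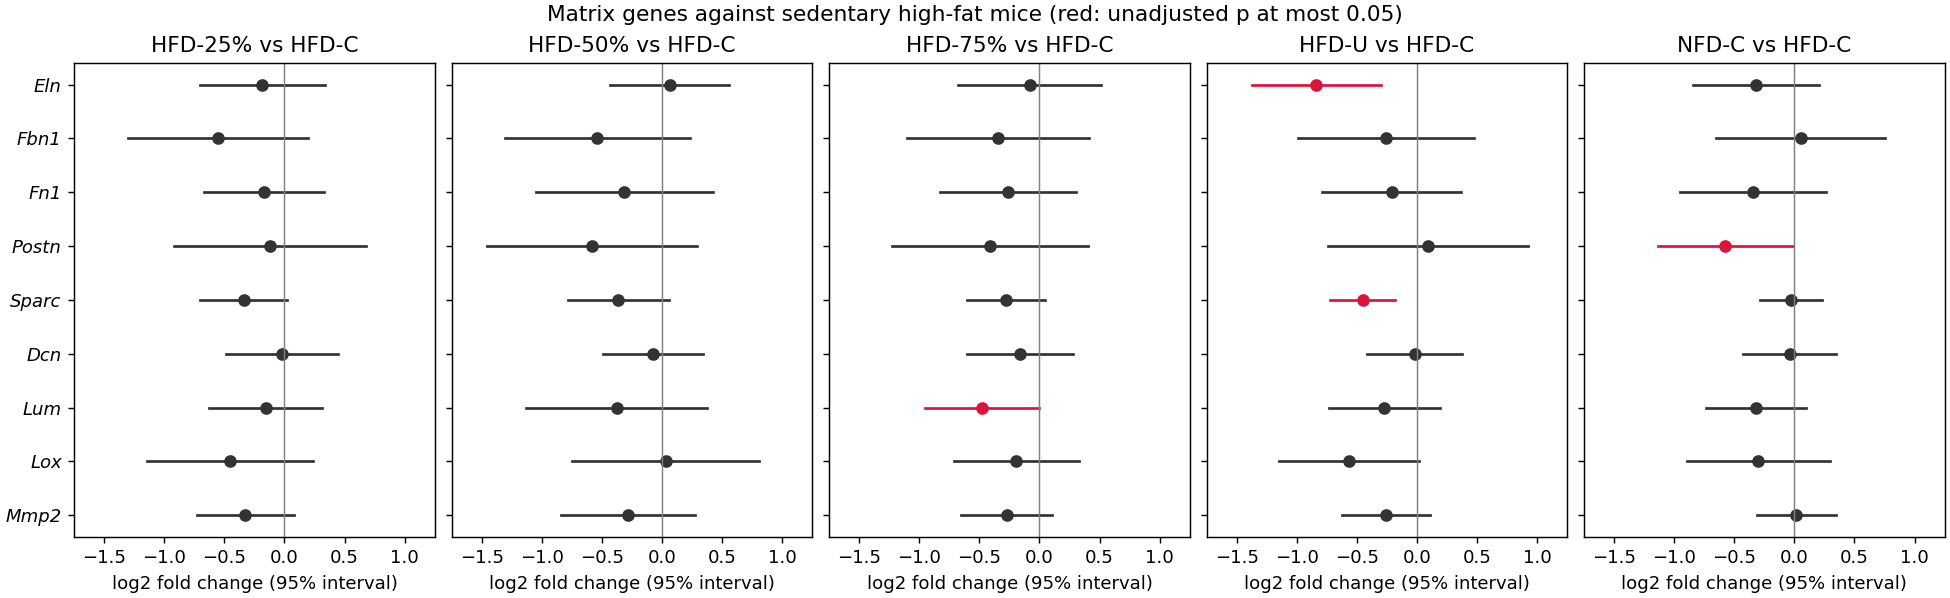
Log2 fold change (points) with its 95% interval (lines) of the 9 tested members against HFD-C, 1 panel per comparison; red marks an unadjusted p of at most 0.05. Most points lie left of 0, and the intervals exclude 0 for Eln (-0.84) and Sparc (-0.45) in HFD-U, Lum (-0.48) in HFD-75% and Postn (-0.58) in NFD-C.

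The lower values of most members did not hold within the low library set. There 3 of 9 members lay below HFD-C in HFD-U, 3 over all runners, 5 in HFD-75%, 5 in HFD-50% and 3 in HFD-25%. The 3 in HFD-U and over all runners were Eln, Sparc and Lox, the elastin, its cross-linking enzyme and SPARC. In HFD-U the other 6 lay above HFD-C, where Postn had been before and Fbn1, Fn1, Mmp2, Dcn (0.45, adjusted p = 0.494) and Lum had not, and the member median in HFD-U became 0.11. In HFD-U the 3 lower members were all called within the set, where 11.8% of all genes were called in either direction. Only HFD-C mice 5 and 6 stood for the controls there. With all libraries and the rRNA-linked share entered as a covariate, 3 of 9 members lay below HFD-C in HFD-U and 4 over all runners. Since all runners had a low share, the covariate rests largely on HFD-C mice 1 to 4 against mice 5 and 6. That fit is therefore not independent of the low-set result. In HFD-U Eln (-1.07), Sparc (-0.60) and Lox (-0.98) were then called lower and Fbn1 (0.81) higher. The smallest edgeR adjusted p of a member in that fit was 0.180. The share of all genes called in it is not given here, so these calls are not a result about the members.

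**Figure D4:**
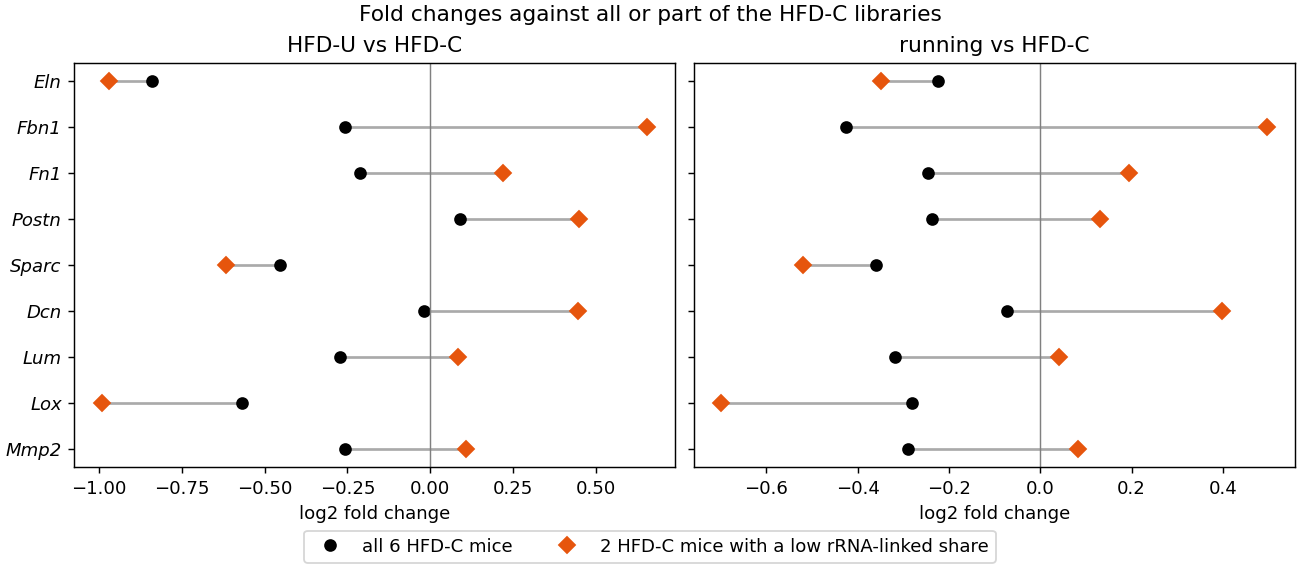
Log2 fold change (horizontal axes) of the 9 tested members in HFD-U and in all runners, against all 6 HFD-C mice (black circles) or against the 2 HFD-C mice of the low library set (orange diamonds). Eln, Sparc and Lox stay left of 0 in both panels, and Fbn1, Fn1, Dcn, Lum and Mmp2 pass from left to right.

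Among mice of the same group, most pairs of members rose and fell together, and no pair with Lox passed the test. Over deviations of log2 CPM from the group mean in 36 mice, Postn and Lum were the closest pair (Pearson's r = 0.874, Spearman's rho = 0.829, permutation within groups, p = 1e-05 for each, the smallest that 100000 permutations can give, adjusted p = 5.14e-05 and 7.2e-05 over 36 pairs). Without the 2 mice farthest from the median Postn deviation r was 0.825. Fn1 followed Lum (r = 0.844) and Postn (r = 0.831), and Fbn1 followed Fn1 (r = 0.814), each with an adjusted permutation p of 5.14e-05. Of the 28 pairs without Lox, with r from 0.30 to 0.874, 26 had an adjusted p of at most 0.05, and of the 8 pairs with Lox, with r from -0.17 to 0.21, 0 did. The share of such pairs among all genes was not computed, so these counts cannot be read as particular to the members. The negative r of Lox with Lum (-0.15) and Mmp2 (-0.15) stood against rho of 0.13 and 0.21. Without the 2 mice farthest from the median Lox deviation r was 0.25 and 0.20. Fbn1 and Lox stayed below 0 (r = -0.13, rho = -0.07).

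Library sets were also taken apart. Over the 26 mice of the low set r was 0.872 for Postn and Lum and 0.890 for Fn1 and Lum, pairs without Lox ran from 0.33 to 0.890, and pairs with Lox from -0.21 to 0.27. Over the 10 mice of the high set pairs without Lox ran from -0.01 to 0.887 and pairs with Lox from 0.05 to 0.62. The genes outside the list most like the members' mean deviation, among 12044 genes in 36 mice, were Fstl1 (r = 0.899), Islr (r = 0.887), Pcolce (r = 0.868), Mfap5 (r = 0.864) and Nid1 (r = 0.847). Pcolce enhances procollagen cleavage, Mfap5 is a microfibril protein and Nid1 belongs to the basement membrane.

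**Figure D5:**
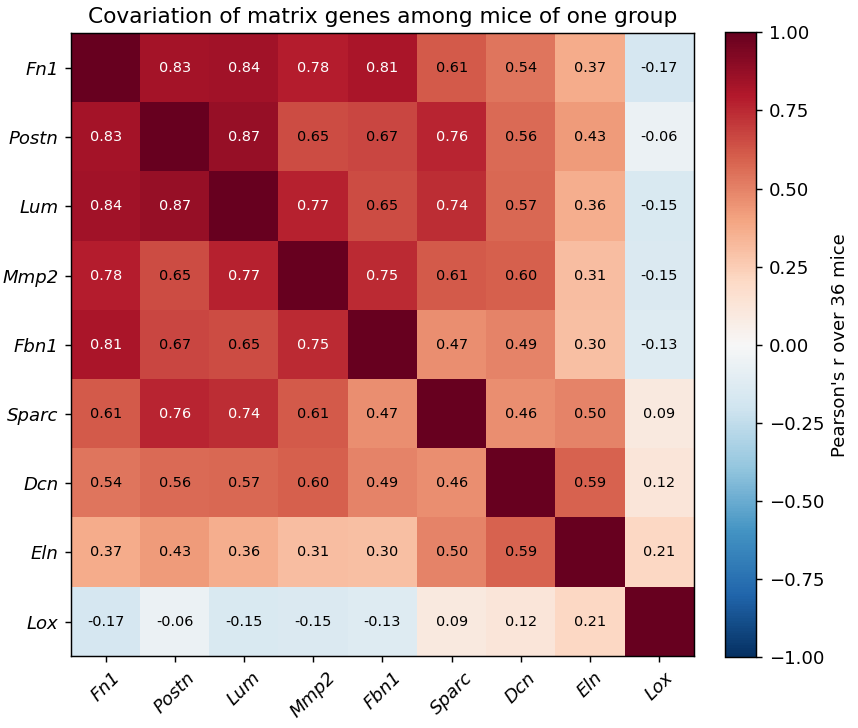
Pearson's r between deviations from group means of log2 CPM over 36 mice for each pair of the 9 tested members, from -1 (blue) to 1 (red). Fn1, Postn, Lum, Mmp2 and Fbn1 form a block with r from 0.65 to 0.87, and the Lox row lies between -0.17 and 0.21.

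Relatives of the members were examined as 4 further lists in all runners against HFD-C, where 5.12% of all genes were lower and 4.15% higher. Of 33 tested other interstitial matrix proteins 8 were lower and 0 higher, led by Ltbp3, which stores latent TGF-beta (log2 fold change -0.29, SE 0.09, edgeR adjusted p = 0.156), and Tnxb, tenascin-X (-0.42, adjusted p = 0.363). The list median was -0.21, beside -0.00070 for all genes. Within the low library set, where 13.4% of all genes were called, Ltbp3 was at -0.49 (adjusted p = 0.117) and Tnxb turned to 0.33. There the list had 1 lower and 3 higher members and a median of 0.15.

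A pair of cross-linking enzymes related to Lox were called lower. Loxl1, which acts on elastin, was at 8.97 CPM in runners and 14.9 CPM in HFD-C (log2 fold change -0.75, SE 0.19, edgeR adjusted p = 0.0876), and Loxl2 was at -0.56 (adjusted p = 0.337). By distance over 30 mice Loxl1 had an adjusted p of 0.0374, and its mean was 11.1 CPM in HFD-U, 9.62 CPM in HFD-75%, 6.78 CPM in HFD-50% and 8.42 CPM in HFD-25%. Timp3, the matrix-bound inhibitor, was higher in runners (0.34, SE 0.15, adjusted p = 0.454). Of 26 tested enzymes and inhibitors 5 were lower and 1 higher, beside 5.12% and 4.15% of all genes, with a median of -0.06. Within the low set the list had 1 lower and 3 higher genes and a median of 0.0025, and there Loxl1 was at -0.89 (adjusted p = 0.190), Timp3 at 0.53 (adjusted p = 0.357) and Loxl2 at -0.13.

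Fibrillar collagens, the bulk of the interstitial matrix, had 4 of 6 tested genes lower and 0 higher in runners. Of all genes 5.12% were lower and 4.15% higher, and the collagen median was -0.59. Col5a1 was at -0.68 (SE 0.18, edgeR adjusted p = 0.103) and Col1a1 at -0.77 (adjusted p = 0.269). Within the low set 0 of 6 passed, the median was -0.42, and Col5a1 was at -0.07. Of 11 tested matrix receptors 1 was lower, the collagen uptake receptor Mrc2 (-0.48, adjusted p = 0.314), with a list median of -0.15. Within the low set 2 receptors were higher and 0 lower, the median was 0.11, and Mrc2 was at 0.30. In HFD-U, where Eln and Sparc were lower, the lists had 3 lower of 33 matrix proteins, 2 of 26 enzymes, 2 of 6 collagens and 1 of 11 receptors, and 0 higher in each, beside 3.31% lower and 2.15% higher of all genes. Within the low set, where 11.8% of all genes were called, matrix proteins had 2 lower and 3 higher, enzymes 2 lower and 1 higher, collagens 1 lower and 0 higher, and receptors 0 lower and 3 higher.

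In all runners 4.15% of all genes were called higher and 5.12% lower. Of 9 tested fibroblast markers 1 (Pdgfrb, log2 fold change 0.47, edgeR adjusted p = 0.361) was called higher and 0 lower, with a list median of 0.02. Their summed level ranged from 401 to 973 CPM in HFD-C and from 635 to 1020 CPM in HFD-U, and 0 were called in HFD-U. The marker Tcf21 was at 0 in every group but HFD-75%, where it had 1 count. Within the low set, where 13.4% of all genes were called, 2 fibroblast markers were higher in all runners and the median was 0.48. Of its 2 HFD-C mice, mouse 6 had the lowest fibroblast marker sum of all mice, 401 CPM. Gsn weighed most in these sums, with a mean of 594 CPM in HFD-C, against 45.3 CPM for the next marker, Ly6a. Of 2 tested tendon markers 1 (Scx, -0.46, adjusted p = 0.534) was lower in all runners, and in HFD-50% Scx was at -0.78 (adjusted p = 0.376). The 8 listed tendon markers summed to 7.64 to 38.9 CPM (median 27.3) in HFD-C and 8.74 to 29.97 CPM (median 26.0) in HFD-U. Their medians were 18.6 CPM in HFD-75%, 12.8 CPM in HFD-50%, 15.2 CPM in HFD-25% and 15.6 CPM in NFD-C.

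Markers of other cells were lower in part, beside 5.12% of all genes in all runners and 3.31% in HFD-U. In all runners 2 of 4 tested adipocyte markers (Cidec, -1.28, and Adipoq, -1.39) and 1 of 5 macrophage markers (Cd68, -0.53) were lower, and 0 of the tested muscle fibre (4), endothelial (5), smooth muscle (2), Schwann cell (4) and blood (5) markers were called. In HFD-U, where Eln and Sparc were lower, 3 of 5 tested adipocyte, 1 of 5 macrophage, 1 of 4 Schwann cell and 1 of 5 blood markers were lower as well. The part of these cells in the members' values was not tested.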

How the data were processed

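Poly-A RNA of gastrocnemius muscle was sequenced as paired reads. The authors aligned reads with HISAT2 (2.0.5) and counted them per gene with featureCounts (1.5.0-p3), and the deposited values are whole read counts, not normalised. The submitters' notes name mm10, whereas the chromosome accessions in the table are those of GRCm39. Gene coordinates are given as in the table. Assembled transcripts without a gene name (562, with 0.151 to 0.576% of counts) carry an identifier and stayed in.

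Groups came from the labels, which give each sample as 1 mouse. Every comparison used edgeR (4.0.16) in R (4.3.3) with TMM factors and a two-sided quasi-likelihood F-test. Genes needed an average of 25 counts over the libraries of a fit, and p-values were adjusted by Benjamini-Hochberg over all genes of the fit. A negative log2 fold change means lower than HFD-C. CPM and FPKM were computed from the counts and the gene lengths in the table. Correlations used log2 CPM with a prior count of 2. Library sets were divided at a ribosomal RNA-linked share of 1.5%. Same-numbered mice of HFD-U and HFD-C had r over 0.1 in 6 of 6 pairs (0.12 to 0.51), against 5 of 6 in HFD-50% and fewer in the other groups. Differently numbered mice were not compared, so this cannot show that the number pairs mice. The labels do not say what mice of 1 number share.

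All members were named, and from each list of related genes up to 2 higher and 2 lower called genes with the smallest p over all runners, plus the 5 genes most like the members' mean. Marker genes were named as the called members of their lists, after their values were seen. Members and lists were chosen with earlier results of these data known. Alternatives were DESeq2 (1.42.0), other scaling, filters, blocks, covariates and subsets, and, added after seeing the data, an exact permutation test of log2 CPM. The fits were tested on simulated data. Promoter sequences came from RefSeq for GRCm38.p6.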

Additional observations from a re-analysis of the deposited data

Results flagged for a closer look

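Of 60 combinations of a member and a group, 6 held a mouse far from the other 5; chance alone marks about 1 in 20. HFD-C mouse 1 had 53.9 CPM of Fbn1, the others 10.3 to 20.0 CPM, and 79.7 CPM of Fn1, the others 28.7 to 40.3 CPM. HFD-25% mouse 2 had 11.9 CPM of Lox, the others 3.08 to 6.14 CPM. HFD-50% mouse 4 had 8.38 CPM of Mmp2, the others 26.9 to 37.3 CPM. For Timp1, a gene of a few counts, NFD-C mouse 4 had 0.274 CPM (others 0 to 0.0443 CPM) and HFD-50% mouse 3 had 0.591 CPM (others 0 to 0.188 CPM). Eln differed between running distances among the 24 runners (edgeR, unadjusted p of 0.000843, adjusted p = 0.216).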

How the results depend on the processing

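Sparc and Eln in HFD-U kept direction and a p of at most 0.05 in every alternative run and with each mouse left out. Timp1, at 0 to 17 counts per library, was too low for the minimum count. The count of called members moved in these settings, and the cause was not tested. Within 1 library set 11.8% of all genes were called in HFD-U and 4.96% in NFD-C. The share of all genes called in the other settings is not given here, so those counts are not a result about the members. With the replicate block, which pairs mice by number, the count of called members was 3 in NFD-C (against 1), 2 in HFD-75% (against 1), 1 in HFD-50% and 1 in HFD-25% (against 0 each). The block changed no unadjusted call of a member in HFD-U. Under DESeq2, with no minimum count and within 1 library set the count in HFD-U was 3, against 2. With mice 2 to 6 only it was 0 in HFD-75%, NFD-C and all runners, and with 1 fit over all groups 0 in HFD-75% and NFD-C, as by the exact permutation test. With that share of ribosomal RNA as a covariate it was 4 in HFD-U and 3 in NFD-C, and within 1 library set 2 in NFD-C. Leaving out 1 mouse gave 2 to 3 in HFD-U, 0 to 3 in HFD-75% (3 without HFD-75% mouse 3), 0 to 2 in HFD-50% (2 without HFD-50% mouse 3), 0 to 1 in HFD-25%, 0 to 2 in NFD-C, 1 to 2 over all runners and 1 to 2 for distance over 30 mice.

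Of 693 values under other alternatives, 591 kept direction and side of the threshold and 80 changed sign; of 882 with 1 mouse left out, 795 and 52. With mice 2 to 6 only, log2 fold changes of changed sign in HFD-25% were median 0.0078, Fbn1 0.0078, Fn1 0.20, Postn 0.27, Dcn 0.16, Lum 0.070. In HFD-50% they were Eln -0.010. In HFD-75% they were Fbn1 0.18, Fn1 0.00074. In HFD-U they were Fbn1 0.13, Postn -0.16, Dcn 0.031. In all runners they were Fbn1 0.048, Fn1 0.027, Dcn 0.042. With the ribosomal RNA covariate, log2 fold changes of changed sign in HFD-25% were median 0.17, Fbn1 0.51, Fn1 0.39, Postn 0.33, Mmp2 0.046, Dcn 0.37, Lum 0.17. In HFD-50% they were Eln -0.14, Fbn1 0.37, Fn1 0.13, Lox -0.22, Mmp2 0.00019, Dcn 0.25. In HFD-75% they were median 0.062, Fbn1 0.71, Fn1 0.30, Postn 0.062, Mmp2 0.12, Dcn 0.24. In HFD-U they were median 0.12, Fbn1 0.81, Fn1 0.35, Mmp2 0.12, Dcn 0.37, Lum 0.049. In NFD-C they were Fbn1 -0.30, Sparc 0.042, Mmp2 -0.13. In all runners they were median 0.052, Fbn1 0.60, Fn1 0.29, Postn 0.17, Mmp2 0.052, Dcn 0.33. Within 1 library set, log2 fold changes of changed sign in HFD-25% were median 0.21, Fbn1 0.38, Fn1 0.27, Postn 0.25, Mmp2 0.053, Dcn 0.46, Lum 0.21. In HFD-50% they were Eln -0.060, Fbn1 0.38, Fn1 0.12, Lox -0.39, Mmp2 0.088, Dcn 0.39. In HFD-75% they were Fbn1 0.57, Fn1 0.17, Mmp2 0.089, Dcn 0.30. In HFD-U they were median 0.11, Fbn1 0.66, Fn1 0.22, Mmp2 0.11, Dcn 0.45, Lum 0.084. In NFD-C they were Fbn1 -0.26, Sparc 0.056, Mmp2 -0.14. In all runners they were median 0.083, Fbn1 0.50, Fn1 0.20, Postn 0.13, Mmp2 0.083, Dcn 0.40, Lum 0.042. With the replicate block, log2 fold changes of changed sign in HFD-50% were Lox -0.022. In HFD-U they were Postn -0.14, Dcn 0.0069. By the difference of mean log2 CPM (exact permutation test), log2 fold changes of changed sign in HFD-50% were Lox -0.083. In HFD-U they were Postn -0.17, Dcn 0.022. With the covariate Fbn1 was called higher in HFD-75% and HFD-U, and in HFD-75% the 1 lower member (Lum) was no longer called. Within 1 library set the 1 called member in HFD-75% was Lox instead of Lum. With 1 mouse left out, ranges that crossed 0 were Eln -0.30 to 0.0081, Fn1 -0.29 to 0.12, Postn -0.36 to 0.092, Dcn -0.15 to 0.10 in HFD-25%. In HFD-50% they were Eln -0.053 to 0.25, Lox -0.30 to 0.27. In HFD-75% they were Eln -0.27 to 0.11, Fbn1 -0.49 to 0.14, Fn1 -0.39 to 0.017, Lox -0.34 to 0.047. In HFD-U they were Fbn1 -0.44 to 0.24, Fn1 -0.36 to 0.071, Postn -0.33 to 0.27, Dcn -0.15 to 0.049. In NFD-C they were Fbn1 -0.10 to 0.54, Sparc -0.074 to 0.032, Mmp2 -0.077 to 0.16, Dcn -0.18 to 0.032. In all runners they were Fbn1 -0.56 to 0.074, Fn1 -0.32 to 0.041.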
